A study of Sus scrofa with 8 samples.

Results

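The enzymes described here make serine from a glycolytic intermediate, move its hydroxymethyl carbon into the folate pool and build cysteine from it. Asparagine synthetase is described with them. Of the 9 genes listed (PHGDH, PSAT1, PSPH, ASNS, SHMT1, SHMT2, MTHFD2, CTH and CBS), 8 were identified on the array, against 8144 gene symbols measured in all. They were measured in liver RNA of lactating sows and of non-lactating sows (Sus scrofa, domestic pig). The labels call the non-lactating group the control. Each group was sampled as 4 pools, each pool holding equal amounts of RNA from 2 sows, so that 8 sows stand behind a group and n always counts pools. The labels give both groups as female liver and name no breed, age, day of lactation or treatment, and what else separated the groups besides lactation is not given in the sources used here. Values are log2 signals of an Affymetrix porcine array, where a difference of 1 is a doubling of signal and levels of different probe sets are not comparable.

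Serine synthesis leaves glycolysis at 3-phosphoglycerate and runs through PHGDH, PSAT1 and PSPH in that order. The serine hydroxymethyltransferases then split serine into glycine and a folate-bound carbon, SHMT1 in the cytosol and SHMT2 in mitochondria, where MTHFD2 oxidises the folate further. CBS and CTH are the enzymes of transsulfuration, which joins serine to homocysteine and releases cysteine, a precursor of glutathione. In mammalian cells, several of these genes and ASNS carry response elements for ATF4, the transcription factor of the amino acid and endoplasmic reticulum stress response, and they are often induced together when amino acids are short. Of the members counted here as ATF4-responsive, 7 were measured (PHGDH, PSAT1, PSPH, SHMT2, MTHFD2, CTH and ASNS).

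The deposited gene symbols alone found 4 of the members: PHGDH, PSPH, ASNS and CTH. PSAT1 was found through its Entrez identifier. SHMT1 was found through a LocusLink identifier in the probe set's target description. SHMT2 and MTHFD2 were found through the human protein that the target description names as similar, since the table lists them as provisional loci (LOC100514459 and LOC100519596). For CBS no probe set was matched, and it was not analysed here. A pair of probe sets carried the symbol PSPH, but they did not measure the same gene. The dimmer one aligned to chromosome 17 and not to chromosome 3. Its Entrez identifier belongs to BPIFA2 in the Sscrofa11.1 gene table, its target description names parotid secretory protein, and its signal of 5.30 to 5.55 in lactating pools and 5.30 to 5.48 in non-lactating pools was left out of the PSPH values. The probe sets used aligned to chromosome 4 (105641745 to 105667850, minus strand) for PHGDH, chromosome 1 (241917107 to 241918218, plus strand) for PSAT1 and chromosome 3 (15451040 to 15455792, plus strand) for PSPH. They aligned to chromosome 5 (21377331 to 21382930, minus strand) for SHMT2, chromosome 3 (63301200 to 63302145, plus strand) for MTHFD2, chromosome 6 (100213249 to 100227003, minus strand) for CTH and chromosome 9 (72736492 to 72742322, minus strand) for ASNS. These are the positions of the deposited alignment column, which does not name its build in words. The SHMT1 probe set has no alignment listed, and the table notes that some of its probes can cross-hybridise to another transcript.

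The arrays were alike in scale, with mean log2 signals of 6.78 to 6.79 and correlations across probe sets of 0.991 to 0.994 within groups. They were not alike in an indirect measure of RNA integrity, the only one used here. The 3' minus 5' log2 signal, averaged over 3 control transcripts and larger in more degraded RNA, was 3.34 to 4.00 in lactating pools and 4.14 to 5.02 in non-lactating pools, without overlap, so lactation and this measure cannot be told apart. The 6 hepatocyte markers measured of 7 listed were at the top of the signal range in both groups, with mean log2 signals of 14.61 to 14.65 in lactating and 14.57 to 14.63 in non-lactating pools, and 1 of them (SERPINA1) was lower in lactating pools. Of the 7 endothelial markers measured, 4 were lower in lactating pools, where 2.52% of all genes were lower. The mean signal of the endothelial list was 7.27 to 7.41 in lactating and 7.57 to 7.69 in non-lactating pools. The count of 4 was 2 without lactating pool 2, 3 or 4 or non-lactating pool 4, and 1 without non-lactating pool 1 or 2. In these fits calls over all 23999 probe sets fell from 1643 to between 406 and 1162. Of the 6 stellate cell and fibroblast markers 2 were lower, with mean signals of 8.11 to 8.49 in lactating and 8.38 to 8.75 in non-lactating pools, and the count was 4 without lactating pool 1 and 1 without lactating pool 4 or non-lactating pool 1. Of 4 T and NK cell markers 1 (CD8A) was lower, with mean signals of 5.89 to 6.09 in lactating and 6.11 to 6.35 in non-lactating pools. CD8A passed in 3 of 8 fits with a pool left out, and SERPINA1 in 6. None of 5 macrophage, 4 cholangiocyte, 2 neutrophil and 1 erythroid markers passed, with medians of -0.17, 0.02, -0.14 and -0.21. The macrophage marker AIF1 passed as lower without non-lactating pool 3. Fewer cells of a type and less RNA per cell cannot be told apart in such tissue RNA, and the part of these markers in the results below was not tested.

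Lactating livers had higher signals of PHGDH, SHMT1 and SHMT2, while PSAT1, MTHFD2 and CTH had differences near 0, and PSPH and ASNS were higher on average but did not pass. In all, 3 of the 8 members rose and none fell (limma, adjusted p below 0.05 over 23999 probe sets), where 6.13% of all genes rose and 2.52% fell. All 8 differences were positive, where 4283 of all 8144 genes had a positive difference. Those of PSAT1 (0.06) and MTHFD2 (0.02) were near 0 and changed sign in some alternative fits. The median of the members was 0.66 on the log2 scale beside 0.013 for all genes. In 5 members the lactating pools all lay above the non-lactating pools, where the same was true of 12.8% of all genes. The count rested on several pools. It was 1 without lactating pool 2, 3 or 4 and without non-lactating pool 1 or 4, and 2 without lactating pool 1 or non-lactating pool 2 or 3. With the 3' minus 5' signal as a covariate limma called 0 members, 2 had an unadjusted p below 0.05, and 0 probe sets on the whole array passed (2474 unadjusted).

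**Figure D1:**
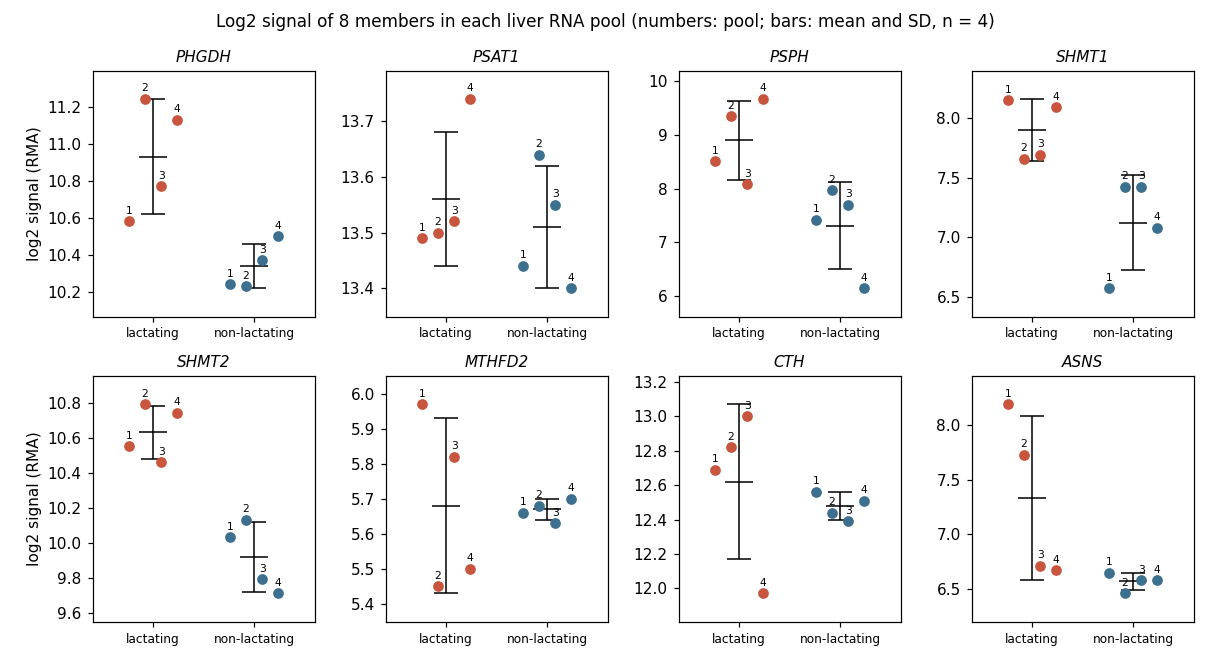
Log2 signal (y axis, its own scale in each panel, not starting at 0) of the 8 members in 4 lactating pools (left, red) and 4 non-lactating pools (right, blue). Numbers are pool numbers, and bars are the group mean and SD (n = 4). The groups are apart for PHGDH, PSPH, SHMT1, SHMT2 and, narrowly, ASNS, and overlap for PSAT1, MTHFD2 and CTH.

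PHGDH, the dehydrogenase that commits 3-phosphoglycerate to serine, had log2 signals of 10.58, 11.24, 10.77 and 11.13 in lactating pools 1 to 4, against 10.24, 10.23, 10.37 and 10.50 in non-lactating pools 1 to 4. Every lactating pool was above every non-lactating pool, by a narrow margin for lactating pool 1. The gene rose by 0.59 ± 0.14 (SE, n = 4 per group), or 1.51-fold (limma adjusted p = 0.0383). The other PHGDH probe set was not used for the gene, because it is assigned jointly to LOC100156167, a locus titled as similar to PHGDH. Its alignment on chromosome 4 overlaps that of the PHGDH probe set used. This other probe set had 9.13, 9.76, 9.40 and 9.54 in lactating and 8.63, 8.69, 8.97 and 8.93 in non-lactating pools. It rose by 0.65 ± 0.14 (SE, limma adjusted p = 0.0253), with lactating pools 2 and 4 again the highest. The call of the PHGDH probe set passed in 1 of the 8 fits that left out a pool, the fit without lactating pool 1, with differences of 0.49 to 0.71. It was also lost with cyclic loess normalisation (0.53, limma adjusted p = 0.0647). With the 3' minus 5' covariate the PHGDH difference was 0.51 ± 0.23 (SE, limma adjusted p = 0.5, unadjusted p = 0.0562).

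PSAT1, the aminotransferase of the next step, had 13.49, 13.50, 13.52 and 13.74 in lactating pools, against 13.44, 13.64, 13.55 and 13.40 in non-lactating pools. The groups overlapped, and lactating pools 1 to 3 were nearly equal. The difference was 0.06 ± 0.09 (SE, limma adjusted p = 0.774), with a 95% interval of -0.14 to 0.25. The interval of PHGDH was 0.27 to 0.91, and the contrast between these genes was not tested. The probe set was bright, in a table whose highest log2 signal is 15.22.

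PSPH, the phosphatase that releases serine, had 8.51, 9.35, 8.08 and 9.67 in lactating pools and 7.42, 7.97, 7.70 and 6.14 in non-lactating pools. The groups did not overlap, but both were widely spread, and non-lactating pool 4 lay far below the rest. Means were 8.90 ± 0.74 in lactating and 7.31 ± 0.81 in non-lactating pools (SD, n = 4 each). The difference of 1.59 ± 0.43 (SE), a 3.02-fold ratio and the largest among the members, did not pass (limma adjusted p = 0.0553, 95% interval 0.63 to 2.56). It was 1.21 without non-lactating pool 4, and 1.08 ± 0.67 with the 3' minus 5' covariate (SE, limma adjusted p = 0.618, unadjusted p = 0.142). PSPH did pass when the dimmest 25% of probe sets were left out (limma adjusted p = 0.0482) and when the mean of all probe sets of a gene was fitted, which also cut the number of tests to 8144 (limma adjusted p = 0.0449).

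SHMT2, the mitochondrial serine hydroxymethyltransferase, gave the steadiest difference. Its log2 signals were 10.55, 10.79, 10.46 and 10.74 in lactating pools, against 10.03, 10.13, 9.79 and 9.71 in non-lactating pools. The lowest lactating pool was clearly above the highest non-lactating pool. The gene rose by 0.72 ± 0.12 (SE), or 1.64-fold (limma adjusted p = 0.0134), and passed in 8 of 8 fits with a pool left out, at 0.65 to 0.79. With the 3' minus 5' covariate the difference was 0.74 ± 0.19 (SE, limma adjusted p = 0.332, unadjusted p = 0.00354).

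SHMT1, the cytosolic enzyme, had 8.15, 7.66, 7.69 and 8.09 in lactating pools, against 6.57, 7.42, 7.42 and 7.08 in non-lactating pools. It rose by 0.78 ± 0.20 (SE), or 1.71-fold (limma adjusted p = 0.0445). Non-lactating pool 1 was the lowest, and it is also the pool with the highest 3' minus 5' signal, 5.02. With that signal as a covariate the SHMT1 difference was 0.21 ± 0.20 (SE, limma adjusted p = 0.768). The call passed in 2 of the 8 fits with a pool left out (without non-lactating pool 2 or 3), at 0.59 to 0.88 over all 8.

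MTHFD2, the mitochondrial folate dehydrogenase and cyclohydrolase, had 5.97, 5.45, 5.82 and 5.50 in lactating pools, against 5.66, 5.68, 5.63 and 5.70 in non-lactating pools. Lactating pools lay on both sides of a tight non-lactating group, with SDs of 0.25 in lactating and 0.03 in non-lactating pools. The difference was 0.02 ± 0.12 (SE, limma adjusted p = 0.961, 95% interval -0.25 to 0.28). Its signal was not far above 4.91, the level below which the dimmest 25% of probe sets fall, and with no measured background the array may understate a change of this transcript.

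CTH, cystathionine gamma-lyase, had 12.69, 12.82, 13.00 and 11.97 in lactating pools, against 12.56, 12.44, 12.39 and 12.51 in non-lactating pools. Lactating pools 1 to 3 were above all non-lactating pools and lactating pool 4 was below all of them. The difference was 0.15 ± 0.19 (SE, limma adjusted p = 0.715), and it was 0.36 without lactating pool 4 (limma adjusted p = 0.0809). With the 3' minus 5' covariate it was 0.55 ± 0.25 (SE, limma adjusted p = 0.506, unadjusted p = 0.0603).

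ASNS, which makes asparagine from aspartate and glutamine and is a standard readout of ATF4, had 8.19, 7.73, 6.71 and 6.67 in lactating pools, against 6.65, 6.46, 6.58 and 6.58 in non-lactating pools. Lactating pools 1 and 2 stood high, while lactating pools 3 and 4 were only just above the highest non-lactating pool. SDs were 0.75 among lactating and 0.08 among non-lactating pools. The difference was 0.76 ± 0.30 (SE), or 1.69-fold, and did not pass (limma adjusted p = 0.170, 95% interval 0.08 to 1.43). It was 0.47 without lactating pool 1. With the 3' minus 5' covariate it was 1.31 ± 0.43 (SE, limma adjusted p = 0.385, unadjusted p = 0.0145).

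**Figure D2:**
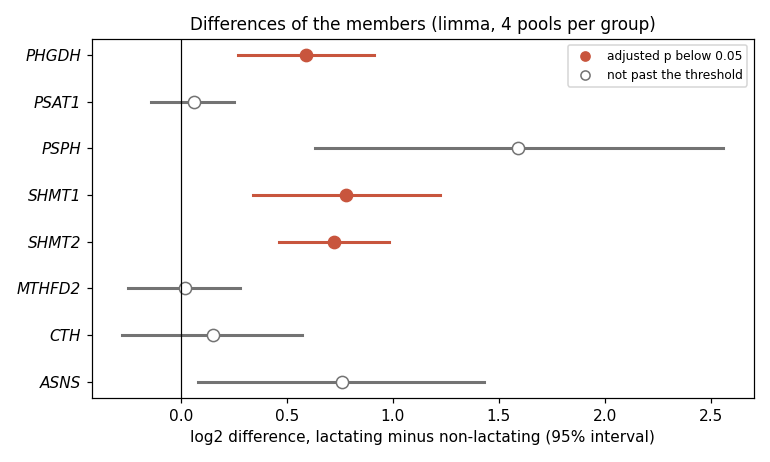
Log2 difference, lactating minus non-lactating (x axis), of each member with its 95% interval from limma (4 pools per group). Filled points passed an adjusted p of 0.05 over all probe sets: PHGDH (0.59), SHMT1 (0.78) and SHMT2 (0.72). PSPH (1.59) and ASNS (0.76) have wide intervals.

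Whether the ATF4-responsive members varied together can be read from which pools were high for each of them. In the lactating group these pools differed between members. PHGDH, PSPH and SHMT2 shared lactating pools 2 and 4 as their highest, whereas ASNS was highest in pools 1 and 2, MTHFD2 in pools 1 and 3, CTH in pools 3 and 2 and PSAT1 in pool 4. Lactating pool 4 shows the split most plainly: it was 0.77 above the lactating mean for PSPH and 0.20 above for PHGDH, while it was at -0.65 for both CTH and ASNS. In the non-lactating group these 3 did not share an order: pool 4 was 0.16 above the mean for PHGDH but at -1.16 for PSPH and -0.21 for SHMT2, and pool 2 was at -0.11 for PHGDH but 0.66 above the mean for PSPH and 0.22 for SHMT2. In lactating pool 1 the ASNS signal was 0.86 above the lactating mean and that of PHGDH was at -0.35.

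**Figure D3:**
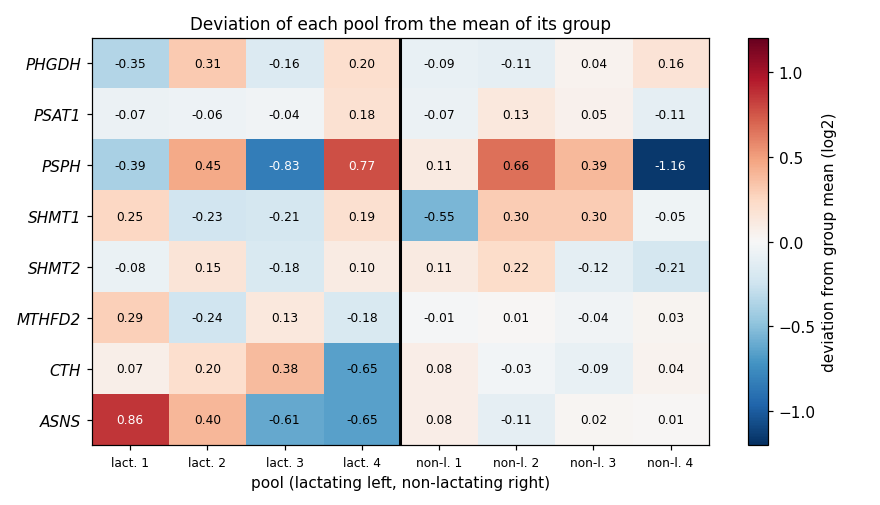
Deviation of each pool from the mean of its own group (log2, colour and printed value) for the 8 members in rows, with lactating pools left of the line and non-lactating pools right of it. No lactating pool is high or low for all members, and PHGDH, PSPH and SHMT2 share positive deviations in lactating pools 2 and 4.

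Covariation was measured for all 28 pairs of members, of which 21 are pairs of ATF4-responsive members, with p-values adjusted over the 28. To take out the group difference, deviations from the group means were correlated, with an exact permutation of pools within groups (2-sided). Of the 21 pairs, 10 had a positive and 11 a negative Pearson r, the median was -0.09, and 0 passed (smallest adjusted p = 0.360 by exact permutation, 2 with an unadjusted p below 0.05). The test has little room: its 576 orders allow no exact permutation p below 0.00174, which for a single pair becomes 0.0486 after adjustment, so a lone pair passes only at that limit and the count of 0 says little about weaker covariation. These 2 were PSPH with SHMT2 (r = 0.82, exact permutation p = 0.0312) and PSPH with PSAT1 (r = 0.75, exact permutation p = 0.0399), each with an adjusted p of 0.360. PHGDH gave r of 0.28 with PSPH and 0.21 with SHMT2. The most negative was PHGDH with MTHFD2 (r = -0.91, exact permutation p = 0.0642, adjusted p = 0.360). ASNS had r of -0.53 with PSAT1, -0.27 with PHGDH, -0.09 with PSPH, 0.03 with SHMT2 and 0.33 with both MTHFD2 and CTH. For ASNS, MTHFD2 and CTH the SDs were 0.75, 0.25 and 0.45 in lactating but 0.08, 0.03 and 0.08 in non-lactating pools. An r with any of these genes therefore rests mostly on the 4 lactating pools. Permuting the non-lactating pools changes such an r little, so its p has even less room than the limit above.

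Over all 8 pools together, 15 of the 21 pairs include a gene whose groups overlap. Of these 15, 8 had a positive and 7 a negative Pearson r, between -0.63 and 0.67, and 0 passed (smallest p = 0.0651, adjusted 0.304, exact permutation, 2-sided). The highest was PSAT1 with PSPH (Pearson r = 0.67, exact permutation p = 0.0651; Spearman rho = 0.57, exact permutation p = 0.151, adjusted 0.353), which was 0.65 without the 2 pools farthest from the PSAT1 median. The lowest was PSAT1 with CTH (Pearson r = -0.63, exact permutation p = 0.0942, adjusted 0.368; Spearman rho = -0.50, exact permutation p = 0.216, adjusted 0.466). It rested on lactating pool 4 and non-lactating pool 2, without which r was 0.22. In the other 6 pairs both genes had groups that did not overlap, so a correlation over 8 pools carries the difference between the groups and no r is given for it. Of these 6, PSPH with SHMT2 passed over 8 pools (exact permutation, adjusted p = 0.0167), but not without lactating pool 1 or 4 or non-lactating pool 2 or 4. Since r within groups rests on at most 4 pools on each side, these data bound the covariation only loosely.

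**Figure D4:**
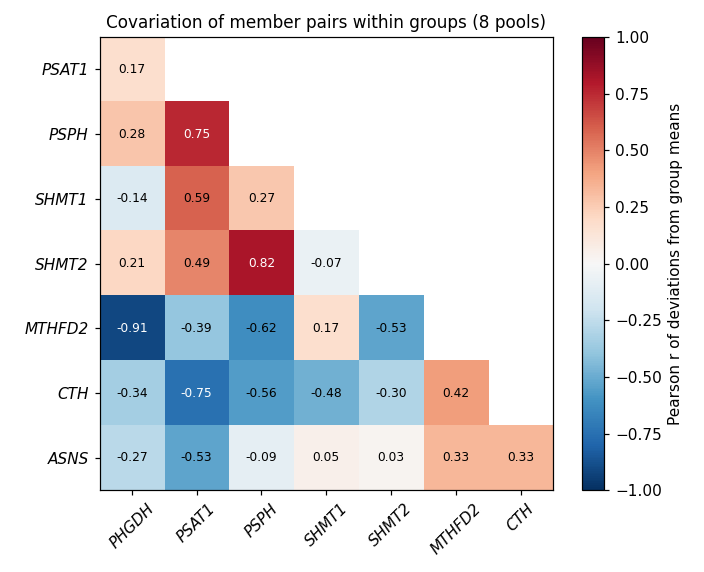
Pearson r between deviations from group means for each pair of members (colour and printed value, 8 pools, 4 per group). Values run from -0.91 (PHGDH with MTHFD2) to 0.82 (PSPH with SHMT2), and no pair passed after adjustment over 28 pairs.

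The genes with the pattern closest to ASNS over the 8 pools, by Pearson r across the 8144 genes and given as a description, were DPPA5 (0.981), FUT1 (0.976), MCMBP and PTPN2 (0.969 each) and DHPS (0.962). Since the groups of ASNS and of PHGDH do not overlap, likeness over 8 pools carries the group difference, and genes picked by it share that difference by choice. FUT1, a fucosyltransferase, had 8.95, 8.65, 7.56 and 7.74 in lactating pools and 7.76, 7.27, 7.67 and 7.70 in non-lactating pools, so it too stood high in lactating pools 1 and 2. DPPA5 was dim, among the dimmest 25% of probe sets, and the values of DHPS spanned a narrow range, 7.76 to 7.89. With group means removed, the closest were IGFBP2, an insulin-like growth factor binding protein secreted by liver (0.989), PTPN2 (0.980) and MAN1A1 (0.979). Non-lactating SDs were 0.08 for ASNS and 0.02, 0.03 and 0.06 for these genes, so this likeness rests mostly on the 4 lactating pools. The genes were picked as the highest of 8144, so a high r is there by choice. IGFBP2 had 10.45, 10.20, 9.55 and 9.60 in lactating pools, against 10.14, 10.17, 10.17 and 10.13 in non-lactating pools, with lactating pools 1 and 2 above and lactating pools 3 and 4 below the non-lactating range. Closest to PHGDH were HARS, the histidyl-tRNA synthetase (0.972), STX4 (0.970), DNPEP, an aspartyl aminopeptidase (0.963), ABHD11 (0.961) and MRPL13, a mitochondrial ribosomal protein (0.960). HARS had 7.42, 7.76, 7.60 and 7.81 in lactating and 7.08, 7.19, 7.32 and 7.31 in non-lactating pools, with lactating pools 4 and 2 the highest. None of these genes is on the ATF4 lists below. Those lists hold only 8 and 19 measured genes of the 8144, and members could not be picked, so this absence says little.

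ATF4 itself had 11.97, 11.74, 11.79 and 11.94 in lactating pools, against 11.74, 11.64, 11.81 and 11.73 in non-lactating pools, a difference of 0.13 ± 0.08 (SE, limma adjusted p = 0.376). Its other, dim probe set gave 0.2 ± 0.14 (SE, limma adjusted p = 0.45). ATF4 is controlled largely at translation, which an array of transcripts does not measure. Among the 8 measured of 14 listed genes upstream of or partnering with ATF4, 1 rose, none fell, 6 differences were positive and the median was 0.17. The one that rose was CEBPG, a C/EBP factor that pairs with ATF4, with 8.09, 7.74, 7.80 and 7.84 in lactating and 7.46, 7.27, 7.41 and 7.65 in non-lactating pools (0.42 ± 0.11 SE, limma adjusted p = 0.0441). DDIT3, the CHOP factor, had 8.36 ± 0.35 in lactating and 8.16 ± 0.32 in non-lactating pools (SD, n = 4 each). Of 19 measured ATF4 targets outside the members, of 37 listed, 2 rose, none fell, 14 differences were positive and the median was 0.07. Beside these 2 lists, 6.13% of all genes rose, 2.52% fell and 4283 of 8144 had a positive difference. EIF4EBP1, an inhibitor of cap-dependent translation, had 8.67, 9.05, 8.71 and 8.82 in lactating pools, against 8.35, 8.20, 8.23 and 8.25 in non-lactating pools, and rose by 0.55 ± 0.09 (SE, limma adjusted p = 0.0150). GARS, the glycyl-tRNA synthetase, rose by 0.33 ± 0.08 (SE, limma adjusted p = 0.0437), and of its 2 other, dim probe sets 1 rose (0.39) and 1 did not pass (0.19).

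**Figure D5:**
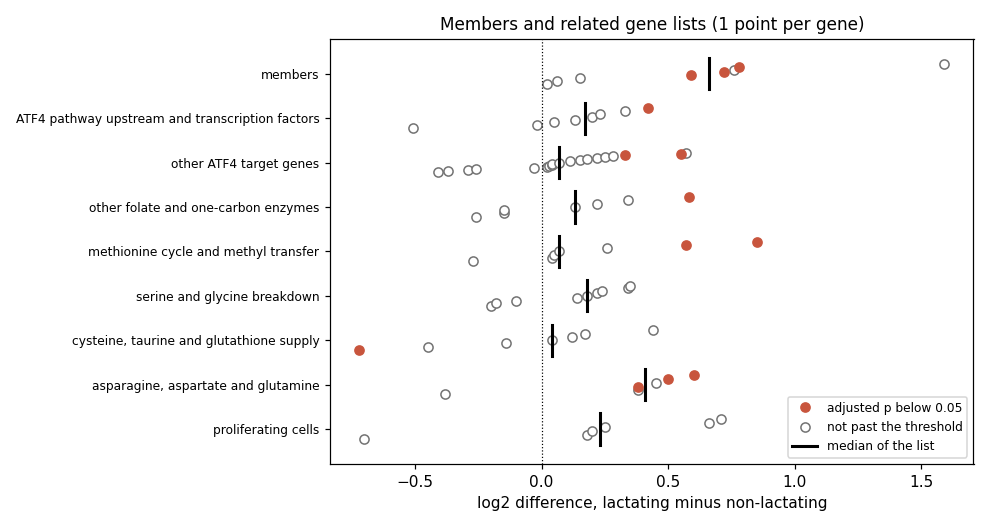
Log2 difference, lactating minus non-lactating (x axis), with 1 point per gene for the 8 members and 8 related gene lists. Filled points passed an adjusted p of 0.05 and the black line is the median of a list, which was 0.66 for the members and 0.07 for the other ATF4 targets.

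The pathways that the members feed were represented unevenly. For comparison with the counts below, 6.13% of all genes rose and 2.52% fell. Of 7 measured genes of folate and one-carbon metabolism outside the members, 1 rose, none fell and the median was 0.13. This was ATIC, which uses folate carbon to finish the purine ring. It had 9.48, 9.46, 9.26 and 9.88 in lactating and 8.72, 9.05, 9.15 and 8.84 in non-lactating pools and rose by 0.58 ± 0.14 (SE, limma adjusted p = 0.0386). Of its 3 other probe sets 1 rose (0.63) and 2 did not pass (0.14 and 0.12).

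In the methionine cycle and methyl transfer list, 2 of 7 measured genes rose, none fell and the median was 0.07. PEMT, which methylates phosphatidylethanolamine to phosphatidylcholine, had 8.60, 9.07, 8.78 and 8.94 in lactating pools, against 7.84, 8.02, 7.99 and 8.14 in non-lactating pools. The groups were well apart, and PEMT rose by 0.85 ± 0.11 (SE), or 1.80-fold (limma adjusted p = 0.0102). AHCY, which splits the S-adenosylhomocysteine left by methyl transfer into homocysteine, the substrate of CBS, had 10.54, 10.73, 10.78 and 10.45 in lactating and 9.95, 10.10, 9.97 and 10.18 in non-lactating pools. AHCY rose by 0.57 ± 0.10 (SE, limma adjusted p = 0.0146), and its dimmer probe set gave 0.15 (limma adjusted p = 0.527).

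Downstream of cysteine, 1 of 7 measured genes fell, none rose and the median was 0.04. GCLC, the catalytic subunit of the enzyme that starts glutathione synthesis, had 11.42, 11.17, 10.75 and 10.86 in lactating pools, against 11.71, 12.03, 11.81 and 11.53 in non-lactating pools. All lactating pools were below the non-lactating pools, and GCLC fell by 0.72 ± 0.16 on the log2 scale (SE, limma adjusted p = 0.0279). Another GCLC probe set also fell (-0.51), while the remaining 2 did not pass (-0.62 and -0.04).

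For asparagine, aspartate and glutamine, the substrates and products of ASNS, 3 of 6 measured genes rose, none fell and the median was 0.41. GOT2, the mitochondrial aspartate aminotransferase, had 12.73, 12.87, 12.72 and 12.80 in lactating and 12.20, 12.18, 12.34 and 12.41 in non-lactating pools (0.50 ± 0.08 SE, limma adjusted p = 0.0132). GLUD1, glutamate dehydrogenase, rose by 0.38 ± 0.09 (SE, limma adjusted p = 0.0365), and GLUL, glutamine synthetase, by 0.60 ± 0.16 (SE, limma adjusted p = 0.0490). Of 2 other GLUL probe sets 1 rose (1.18) and 1 gave -0.13.

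None of 9 measured genes of serine and glycine breakdown passed (limma, 4 with an unadjusted p below 0.05), with a median of 0.18 and the smallest p for GRHPR, glyoxylate and hydroxypyruvate reductase (0.35 ± 0.10 SE, limma adjusted p = 0.0563), and AGXT2 (0.34 ± 0.12 SE, limma adjusted p = 0.117). Proliferation genes, which in many tissues accompany serine synthesis, gave 0 of 6 past the threshold (limma, 2 with an unadjusted p below 0.05). TOP2A had 0.71 ± 0.26 (SE, limma adjusted p = 0.131) and PCNA 0.25 ± 0.11 (SE, limma adjusted p = 0.185).

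Over these 8 lists 10 of 67 genes passed, 9 higher and 1 lower, where 8.64% of all genes passed. The number was 4 without lactating pool 2 or 4 or non-lactating pool 1, 5 without lactating pool 3 or non-lactating pool 2, and 6 without non-lactating pool 4. Calls over the whole array fell in these fits as well, from 1643 of 23999 probe sets to between 406 and 1162. PEMT, AHCY, EIF4EBP1 and GOT2 passed in 8 of 8 fits with a pool left out, while ATIC, GARS and GCLC passed in 2, and CEBPG, GLUD1 and GLUL in 1.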

How the data were processed

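The values deposited by the authors are log2 signals for 24123 probe sets, produced with Affymetrix Expression Console and RMA (background correction, quantile normalisation and probe summary) per the submitters' processing notes. Their versions are not given in the labels. A second deposited set of log2 values differed by at most 0.005. After leaving out 124 control probe sets, 23999 were fitted with limma 3.58.1 in R 4.3.3 (lmFit, eBayes, group as the only term, 2-sided, Benjamini-Hochberg over all probe sets). Pairwise correlations used exact permutation tests in Python 3.11.15. The scripts were tested on simulated data.

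Symbols were updated through the Sscrofa11.1 gene table (9065 probe sets by Entrez identifier, 29 by transcript, while 2135 kept the deposited symbol). The brightest probe set by its mean over 8 arrays stood for a gene. The members, 8 pathway lists, 8 marker lists and the naming rule were chosen with earlier results of these data known. The rule named all members, ATF4, up to 4 called genes per list (the 2 smallest p-values where none was called), the 5 genes most like ASNS and like PHGDH, and 3 for ASNS with group means removed. DDIT3 was named after its values were seen. The number of arrays limits the precision. Nothing says how the pools were processed in batches, which was not tested. Alternatives were a replicate block, the second value set, a filter on dim probe sets, an intensity trend with a robust prior, cyclic loess, an equal-variance test, a 3' minus 5' covariate, gene means, Spearman's rho, deposited symbols alone (added after seeing the data) and leaving out each pool.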

Additional observations from a re-analysis of the deposited data

Results flagged for a closer look

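In 18 groups of 4 pools (8 members and ATF4, 2 groups each), 1 value lay apart by Dixon's criterion, about what chance gives at 1 in 20. PSAT1 had a log2 signal of 13.74 in lactating pool 4, while the other lactating pools had 13.49 to 13.52. Lactating pool 4 also had the lowest CTH signal and the lowest 3' minus 5' signal of the 8 pools (3.34), and the part of RNA integrity in these values was not tested.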

How the results depend on the processing

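The 3 members that passed became 0 with the equal-variance test (4 with an unadjusted p below 0.05) and 0 with the 3' minus 5' covariate (2 unadjusted). Over the whole array 0 of 23999 probe sets passed with the equal-variance test (4964 unadjusted) and 0 with the covariate (2474 unadjusted). These losses are therefore not particular to the members or the list genes. Deposited symbols alone gave 1 of 4 members, since they do not find SHMT1 and SHMT2. Leaving out a pool gave 1 to 2 of 8, where calls over the whole array fell from 1643 probe sets to between 406 and 1424. The 10 list genes that passed became 0 with the equal-variance test (25 unadjusted) and 0 with the covariate (12 unadjusted), and 4 to 10 with a pool left out. With a pool left out the PSAT1 difference ran from -0.0026 to 0.10 and that of MTHFD2 from -0.08 to 0.09. PSAT1 changed sign with cyclic loess (-0.02), with the covariate (-0.13) and without lactating pool 4 (-0.0026), and MTHFD2 without lactating pool 1 (-0.08) or 3 (-0.03). Pairs of ATF4-responsive members that passed over 8 pools numbered 1 (PSPH with SHMT2), with 2 under cyclic loess and 0 to 1 with a pool left out. The groups of PSPH and of SHMT2 do not overlap, so this pair carries the group difference. With group means removed its adjusted p was 0.36 (exact permutation). Within groups the count with a pool left out says nothing, since a lone pair then reaches no adjusted p below 0.194. The cause of these shifts was not tested. With the replicate number as a block 2 members passed, because SHMT1 did not (0.78, limma adjusted p = 0.0830), and 11 list genes passed. Same-numbered pools shared deviations only weakly (correlations of 0.072 to 0.243, not all above 0.1). Lactating pools 1, 2 and 4 correlated best with their own number and lactating pool 3 did not, a hint from the data, while the labels do not pair the pools. The other alternatives kept each count within 1.5 times.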
